A study of Mus musculus with 12 samples.

Results

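The interferon-stimulated genes examined here are 41 named genes that cells switch on in response to interferon, out of 52636 genes in the deposited table. They were chosen by name as a known gene family, with earlier results of these data known. All 41 were found in the table under their symbols. Hepatocytes were isolated from steatotic livers of wild-type (WT) mice and of mice with a knockout (KO) of Ptprk, which encodes protein tyrosine phosphatase receptor kappa. The cells of each mouse were separated by Percoll gradient and centrifugation into a fraction with little lipid (low-fat) and a fraction with much lipid (high-fat), and polyA RNA was sequenced from each. This gave 12 libraries from 6 mice, in 4 groups of 3, one for each fraction of each genotype. All groups share the steatotic liver as their source. Strain, sex, age, diet and the way the knockout was made are not given in the sources used here, and low-fat and high-fat name the lipid content of the cells, not a diet.

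Interferons are secreted proteins that signal through paired receptors and JAK kinases to transcription factors, STAT2 and IRF9 among them, that bind interferon-stimulated response elements (ISRE) in the promoters of target genes. Interferon gamma acts mainly through gamma-activated sites (GAS). The products sense or degrade foreign RNA, tag proteins with ISG15, restrict viruses or attack the membranes around intracellular microbes. In the liver, hepatocytes, Kupffer cells (resident macrophages) and sinusoidal endothelial cells can all respond to interferon.

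Levels are given as reads per 20 M (mega) reads, the total to which the authors scaled each library. Estimated depth lay between 15.1 M and 25.02 M reads, so that 3 reads are worth 2.40 to 3.98 reads per 20 M. Fold changes are on a log2(value + 2) scale, which understates the change of low genes, and were tested with limma over 16563 genes that reached a value of 10 in at least 3 libraries. A gene was called at a Benjamini-Hochberg adjusted p under 0.05. All 41 genes passed the filter and none was at 0 in any library. The targeted gene followed the labels: Ptprk stood at 2758, 2883 and 2724 in WT low-fat libraries and at 1117, 1364 and 1333 in KO low-fat libraries. In high-fat libraries it stood at 2174, 2578 and 2469 in WT and at 1217, 1204 and 1179 in KO. The KO libraries thus held about 0.458 and 0.508 times the WT level, and Ptprk was the 1 gene of the table called between genotypes (limma adjusted p of 0.000978 between low-fat and 0.00446 between high-fat libraries).

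Promoter sequence was compared first, because it is what these genes are known to share. Windows of 250 bases before the gene start were read from RefSeq (GRCm38.p6) for the 30 of 41 genes found there, and searched on both strands for the core of the ISRE (GAAANNGAAA) and for a GAS (TTCNNNGAA). Matches of the ISRE core may overlap each other. An ISRE core was found in 13 of the 30 (43.3%), against 3.46% of 27025 genes searched in the same way. A GAS was found in 9 of the 30 (30.0%), against 8.13% of those genes. A match describes the letters in the window and is not a measurement of binding. 4 windows are shown. Ifit3 was called between the fat fractions, and Oasl2, over all 12 libraries, only with the mouse as a block. Ifit1 and Igtp had among the smallest p-values between genotypes. Capitals mark the ISRE cores, in either orientation.
Ifit3, chr19:34583279-34583528, plus strand: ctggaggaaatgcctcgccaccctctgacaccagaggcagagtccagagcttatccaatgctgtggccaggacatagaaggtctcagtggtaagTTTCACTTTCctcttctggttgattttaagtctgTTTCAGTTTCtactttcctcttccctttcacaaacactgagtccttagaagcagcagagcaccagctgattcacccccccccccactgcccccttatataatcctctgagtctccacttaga
Oasl2, chr5:114896684-114896933, plus strand: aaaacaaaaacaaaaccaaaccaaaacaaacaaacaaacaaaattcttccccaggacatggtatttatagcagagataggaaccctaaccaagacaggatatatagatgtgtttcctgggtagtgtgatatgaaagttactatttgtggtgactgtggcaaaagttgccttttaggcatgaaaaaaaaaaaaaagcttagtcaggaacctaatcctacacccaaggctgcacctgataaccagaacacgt
Ifit1, chr19:34640639-34640888, plus strand: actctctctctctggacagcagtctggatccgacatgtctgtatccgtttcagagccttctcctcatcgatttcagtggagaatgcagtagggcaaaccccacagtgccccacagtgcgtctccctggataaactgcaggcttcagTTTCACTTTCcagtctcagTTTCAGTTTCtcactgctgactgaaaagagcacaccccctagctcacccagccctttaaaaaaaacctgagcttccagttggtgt
Igtp, chr11:58199306-58199555, plus strand: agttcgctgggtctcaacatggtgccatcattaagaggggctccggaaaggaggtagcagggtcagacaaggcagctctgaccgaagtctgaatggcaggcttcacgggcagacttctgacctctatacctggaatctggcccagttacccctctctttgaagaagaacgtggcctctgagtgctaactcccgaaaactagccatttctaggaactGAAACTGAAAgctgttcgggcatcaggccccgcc
Ifit3 and Ifit1 each carried 2 cores, Igtp carried 1 and Oasl2 had no match in this window. The cores of Ifit3 began 156 and 122 bases before its start and those of Ifit1 104 and 85 bases before. In Igtp the core began 34 bases before the start, 11 bases downstream of a GAS match at 45 bases.

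The 41 genes covered a wide range of levels, and per length the order was headed by an antiviral membrane protein. Divided by merged exon length (GENCODE M21), Bst2, which tethers budding virions to the cell surface, had the highest mean over the 12 libraries, 2450 reads per 20 M per kb. Ifi27, a small mitochondrial protein, followed at 1237 and Iigp1, a GTPase that attacks the vacuoles of intracellular pathogens, at 999.5. At the low end were Oasl2 at 7.818, Mx1 at 7.794, Oas2 at 7.021 and Oas3 at 3.725 per kb. Another annotated gene overlaps 16 of the 41 genes, 12 of them on the opposite strand, and reads of overlapping genes may be mixed because the strandedness of the counting is not given in the sources used here. Members of the Ifit, Oas, Gbp and Irg families have close relatives, so their values carry the same doubt about reads shared between copies.

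Between the fat fractions, most of the 41 genes did not pass the test, and 3 genes of RNA recognition were called higher in the high-fat libraries. Over both genotypes, Oas2, Ifit2 and Ifit3 were called higher, 3 of 41 genes, and none was called lower. Of all genes tested, 4.99% were called higher and 0.773% lower (5.76% in all), so the share of the 41 called lay near that background. The median log2 fold change of the 41 was 0.04, against -0.042 over all genes tested, with 22 of the 41 above 0, against 41.4% of all genes. All high-fat libraries lay above all low-fat libraries for 2 of the 41, against 4.44% of all genes. With the mouse as a block, Oasl2 was called as well, making 4 of 41 against 6.65% of all genes.

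Oas2 makes the short 2-5A chains that activate RNase L when double-stranded RNA is present. Its low-fat levels were 9, 17 and 2 in WT and 4, 12 and 7 in KO, and its high-fat levels were 120, 34 and 19 in WT and 97, 34 and 20 in KO. Every high-fat library was above every low-fat library, with the 2 highest values in replicate 1 of each genotype. The lowest level, in WT low-fat replicate 3, is less than 3 reads. All 6 mice were higher in their high-fat library. Each SE given here and below comes from the fit of all 12 libraries, which does not pair the 2 libraries of a mouse. Over both genotypes Oas2 rose by 2.19 ± 0.51 (SE) on the log2 scale, with limma adjusted p = 0.0276. That call is lost when any 1 of 8 libraries is left out (WT low-fat replicates 1 and 3, WT high-fat 1 and 2, KO low-fat 1 and 3, KO high-fat 1 and 2), with adjusted p between 0.0507 and 0.0761.

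Ifit2 and Ifit3 encode proteins that bind foreign RNA and one another. Ifit2 stood at 29, 37 and 24 in WT low-fat and 21, 36 and 52 in KO low-fat libraries, against 132, 59 and 56 in WT high-fat and 117, 68 and 75 in KO high-fat libraries. Its fractions did not overlap, with the 2 highest values again in replicate 1. Ifit2 rose by 1.21 ± 0.25 (SE) on the log2 scale (limma adjusted p = 0.0162). Ifit3 stood at 107, 134 and 120 in WT low-fat and 123, 127 and 188 in KO low-fat libraries, against 247, 185 and 179 in WT high-fat and 244, 208 and 203 in KO high-fat libraries. The KO low-fat value of replicate 3 lay above 2 WT high-fat values, so its fractions overlapped. Ifit3 rose by 0.59 ± 0.12 (SE) on the log2 scale (limma adjusted p = 0.0158), and all 6 mice moved the same way for both genes. Both calls held in all 12 fits that left out 1 library.

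Oasl2, a ubiquitin-like relative of the 2-5A synthetases, stood at 24, 42 and 22 in WT low-fat and 22, 34 and 19 in KO low-fat libraries. The high-fat values were 142, 50 and 41 in WT and 113, 54 and 35 in KO. All 6 mice were higher in the high-fat library, but 2 high-fat values lay below the highest low-fat value. Its log2 fold change was 1.14 ± 0.33 (SE), with limma adjusted p = 0.0731 without and 0.0441 with the mouse as a block. Without the block, Oasl2 was called when replicate 3 of WT high-fat or of KO high-fat was left out.

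**Figure D1:**
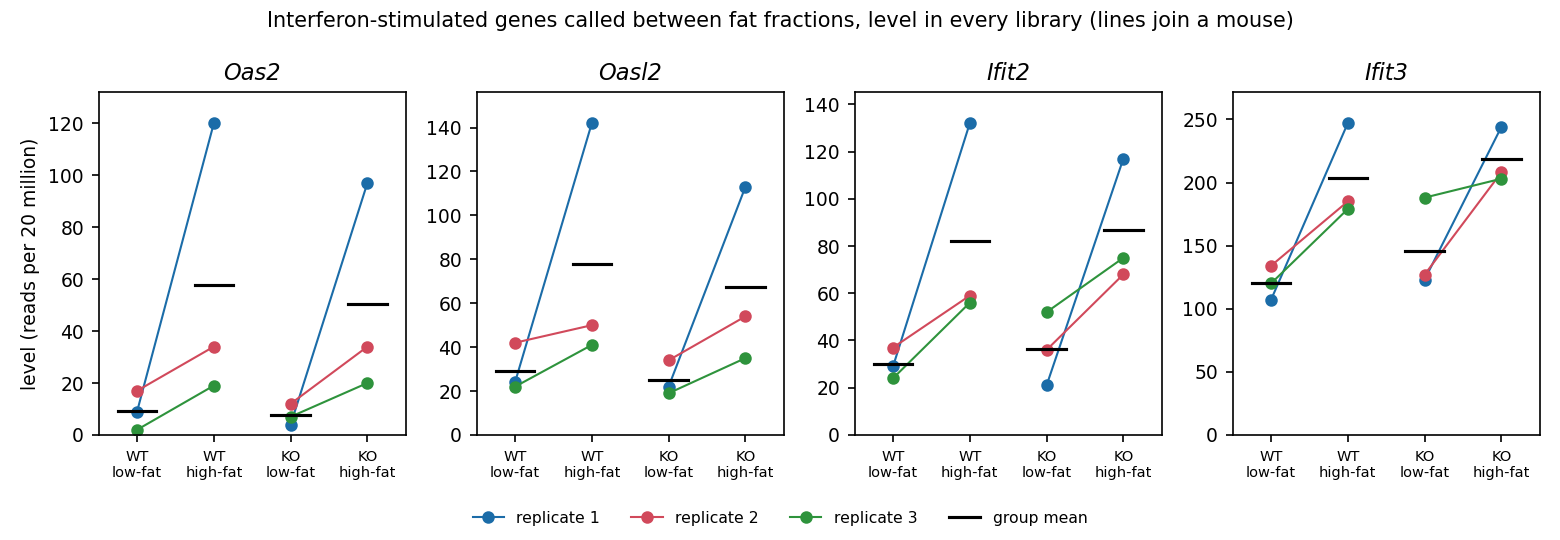
Level in reads per 20 M (vertical axes from 0) of Oas2, Oasl2, Ifit2 and Ifit3 in each of the 12 libraries, by group, with lines joining the 2 libraries of a mouse and black bars at group means. Each line rises from low-fat to high-fat, most steeply in replicate 1 of both genotypes.

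The same 4 genes were not called within a single genotype. In WT the log2 fold change of Oas2 was 2.20 (limma adjusted p = 0.249), of Ifit2 1.23 (0.19), of Ifit3 0.66 (0.148) and of Oasl2 1.11 (0.399). In KO it was 2.18 (0.246), 1.19 (0.176), 0.53 (0.241) and 1.17 (0.417) in the same order. In WT no gene of the table was called, and in KO 0.894% of genes were, none of the 41 among them. With the block, 169 genes (1.02%) were called in WT and 353 (2.13%) in KO, again with none of the 41. At an unadjusted limma p under 0.05, 4 of the 41 were higher in the high-fat fraction in WT and 4 in KO, against 7.73% and 6.86% of all genes.

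The remaining genes are given by role, none of them called. Of the 9 genes of IFIT and OAS RNA recognition, 7 had a log2 fold change above 0, with a median of 0.59. Oas3, the synthetase for long double-stranded RNA, is given in full after its values were seen. It stood at 10, 15 and 3 in WT and 7, 22 and 7 in KO low-fat libraries, against 91, 21 and 12 in WT and 89, 25 and 14 in KO high-fat libraries. All 6 mice were higher in the high-fat library, but its log2 fold change of 1.47 did not pass the test (limma adjusted p = 0.16). Oas1a and Ifit1 were not called (limma adjusted p of 0.603 and 0.775), nor was Oasl1 at -0.23 (0.393). Eif2ak2, the kinase that halts translation on double-stranded RNA, stood between 465 and 612 in all libraries. The 4 nucleic acid sensors Ifih1, Ddx58, Dhx58 and Zbp1 were all below 0, with a median of -0.09. Ifih1, which detects long double-stranded RNA, had, after scaling, its lower value in the high-fat library in all 6 mice, at a log2 fold change of -0.18 (limma adjusted p = 0.198).

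The transcription factors Irf1, Irf7, Irf9 and Stat2 had a median log2 fold change of -0.11, and none was called. Stat2, a part of the ISRE-binding complex, stood between 1301 and 2322 in the 12 libraries. The ISG15 system is Isg15 itself, Usp18, which removes it, Herc6, which attaches it, and Trim25, a ubiquitin ligase that activates a viral RNA sensor. Its median was 0.00. Trim25 stood at 2191 to 3818 and, after scaling, the high-fat value was the lower in all 6 mice. The other antiviral effectors were Mx1, Mx2, Rsad2, Cmpk2, Bst2, Isg20, Samhd1, Xaf1 and Rtp4, with a median of 0.09. Among them Rsad2, which makes an antiviral chain terminator nucleotide, was higher in all 6 mice, at 0.33 (limma adjusted p = 0.15), and Isg20, an exonuclease, was at -0.39 (0.265). Bst2 stood between 1745 and 2696. The interferon-inducible GTPases Gbp2, Gbp3, Gbp7, Igtp, Irgm1 and Iigp1 had a median of -0.01. Gbp2 was the highest of them at 0.69 (limma adjusted p = 0.133), and Iigp1 the lowest at -0.22 (0.343). The group of Parp9, Parp14, Ifi27, Ifi35 and Ifi44 had a median of -0.04, and Ifi27 stood between 1399 and 2459.

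**Figure D2:**
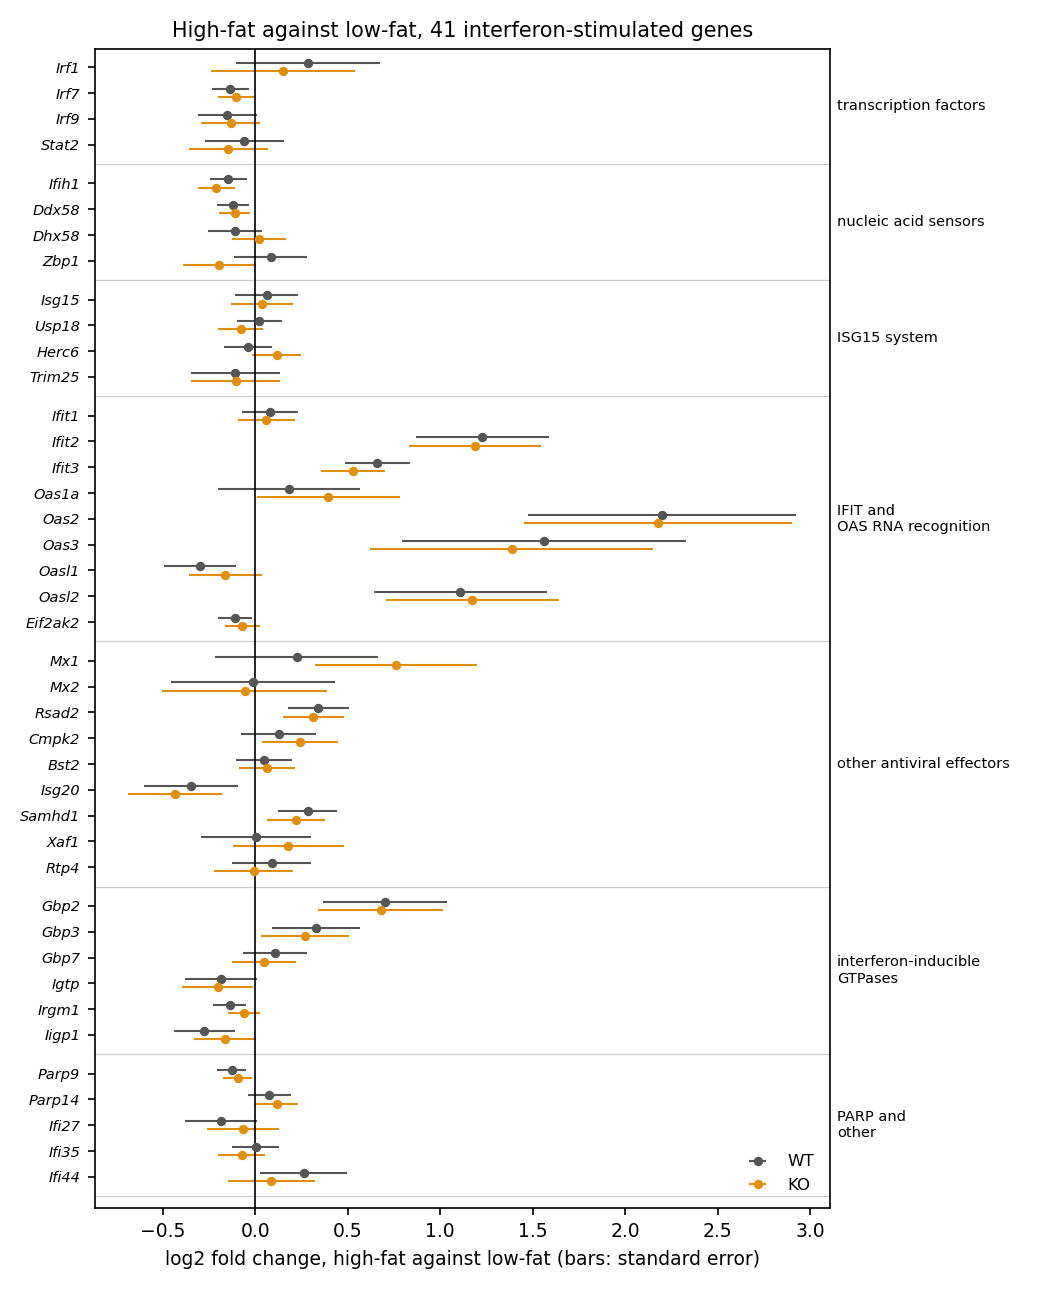
Log2 fold change between the fractions, high-fat over low-fat (horizontal axis), for the 41 genes by role, in WT (grey) and KO (orange), with bars of 1 standard error. Oas2, Oas3, Ifit2 and Oasl2 lie farthest to the right in both genotypes, and most others lie near 0.

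Across mice, 7 of the 41 genes were higher in the high-fat library of all 6 mice, against 9.74% of all genes tested, and 5 were lower in all 6, against 11.7%. The difference of Oas2 was largest in replicate 1 of each genotype, with log2 differences of 3.35 in WT and 3.86 in KO. In the other mice it was 0.91 and 2.34 in WT and 1.37 and 1.30 in KO. The median log2 difference of the Kupffer cell and macrophage markers ordered the mice of each genotype as Oas2 did. It was 3.38 and 4.31 in the same 2 mice, and between 0.77 and 1.93 in the other 4. For endothelial markers it was 2.21, 1.52 and 1.02 in WT replicates 1, 2 and 3, and 2.81, 1.47 and 1.17 in KO. Replicates 2 and 3 of WT thus stood in the opposite order to Oas2. Stellate markers did not follow the order of Oas2 in WT, with 2.52 in replicate 1, 2.84 in replicate 2 and 1.63 in replicate 3. In KO they stood at 3.802, 2.58 and 1.89, and both they and the endothelial markers followed the order of Oas2. Each order rests on 3 mice, and in KO the Oas2 values of replicates 2 and 3 were close, at 1.37 and 1.30. The lymphocyte, neutrophil and dendritic cell lists had 1 tested marker each. Cd3e of lymphocytes differed by 0.888, -1.578 and -0.035 in WT and by 0.337, -1.077 and 0.425 in KO. Csf3r of neutrophils differed by 3.382, -1.48 and 1.784 and by 2.178, -2.605 and 0.539. Clec9a of dendritic cells differed by 3.606, 0.955 and 1.577 and by 4.413, 0.251 and 0.788. Of 3 nuclear-retained RNAs, Malat1 was the median in each mouse. Its differences were 1.18 and 1.40 in replicate 1 of WT and KO, -1.74 in KO replicate 2 and 0.19 to 0.27 in the other 3 mice. In those 3 mice Neat1 lay between -0.615 and -0.063 and Kcnq1ot1 between 0.465 and 1.324. Summed over the 9 macrophage markers, low-fat libraries held 658 to 1341 in WT and 470 to 745 in KO, and high-fat libraries 2287 to 11426 in WT and 2109 to 9919 in KO. Endothelial sums were 1916 to 2008 and 821 to 1656, against 4067 to 10022 and 3249 to 6450. Stellate sums were 249 to 666 and 128 to 608, against 2002 to 3549 and 2327 to 2871. In both genotypes the highest macrophage sum was that of high-fat replicate 1. Of the marker lists, 8 of 9 macrophage, 7 of 7 endothelial and 8 of 8 stellate cell markers were called higher in the high-fat libraries, with median log2 fold changes of 2.24, 1.75 and 2.65, and no marker of these lists was at 0 in all libraries of a group. The 6 hepatocyte markers had a median of -0.14, but 1 of them, Cyp2e1, was called higher at 0.71 (limma adjusted p = 0.0252) and was higher in all 6 mice. The 1 cholangiocyte marker tested, Sox9, was lower in all 6 mice, by log2 differences between -0.71 and -0.44, and was called with the block alone (limma adjusted p = 0.0031, against 0.11 without it). The part of these cells, of nuclear-retained RNAs and of RNA quality in the results was not tested. In bulk libraries more cells of a type and more RNA per cell cannot be told apart. Without replicate 1 of every group, none of the 41 genes was called: the log2 fold change was 0.79 for Ifit2 (limma adjusted p = 0.0999), 0.45 for Ifit3 (0.262) and 1.49 for Oas2 (0.252), with 375 genes called in all against 954 in all 12 libraries.

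**Figure D3:**
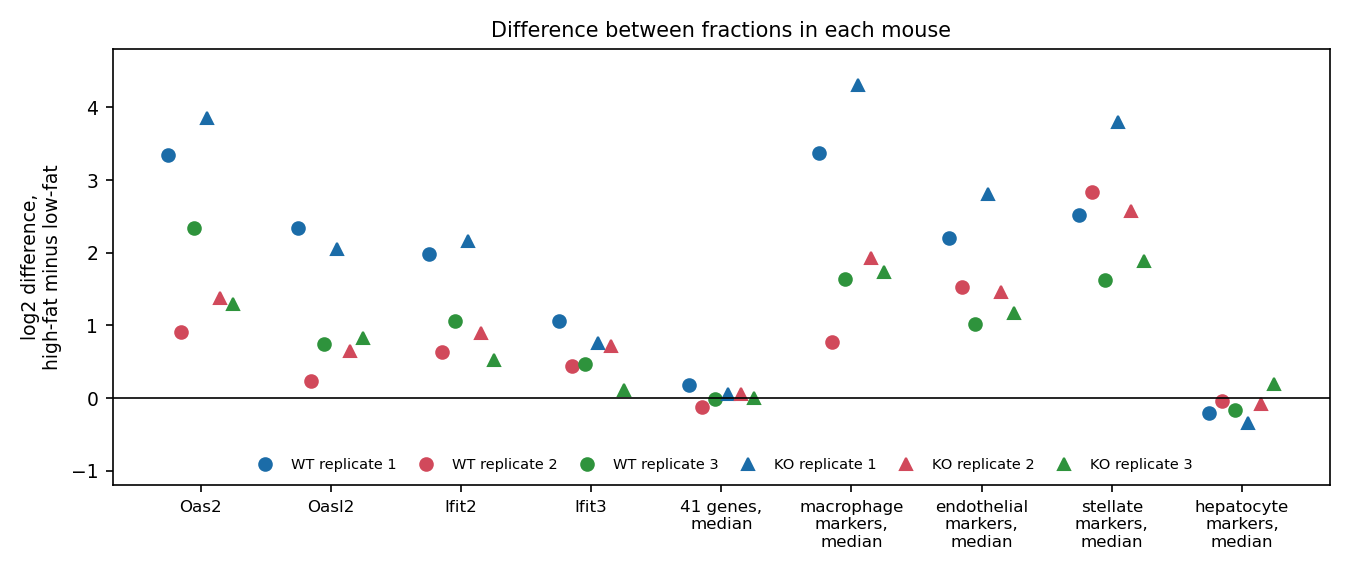
Log2 difference between the high-fat and low-fat library of each mouse (vertical axis) for 4 genes, the median of the 41 genes and the medians of 4 lists of cell markers. Circles are WT and triangles KO, coloured by replicate. Replicate 1 (blue) lies highest for Oas2, Oasl2, Ifit2, Ifit3 and the macrophage and endothelial markers. The median of the 41 genes stays between -0.12 and 0.18.

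Between genotypes, no interferon-stimulated gene was called in either fraction, while most had slightly higher values in KO. In low-fat libraries 0 of 41 were called, against 0.00604% of all genes, which is Ptprk alone. At an unadjusted p under 0.05, 5 of the 41 were higher (Zbp1, Ifit1, Irf7, Usp18 and Igtp) and none lower, against 0.737% and 0.906% of all genes. In high-fat libraries 4 were higher (Irf7, Iigp1, Ifit1 and Igtp) and none lower, against 0.9% and 1.07%. These counts changed when libraries were left out or the scaling was changed. Leaving out a library also makes its group smaller, which cannot be told apart from the weight of that library. In low-fat libraries 1 gene was left without WT replicate 1 or KO replicate 3, 2 without KO replicate 1 or with the deposited scaling alone, and 3 without WT replicate 3, with only the compared libraries or without replicate 1 of every group. In high-fat libraries 1 was left without WT replicate 3 or KO replicate 2, and 2 without KO replicate 3, with only the compared libraries or under each of the other scalings (median of ratios, deposited, over the genes tested). The low-fat count stayed at 5 without replicate 2 of WT or KO. The high-fat count was 4 without WT replicate 1 and 3 without WT replicate 2 or KO replicate 1. Counts over all genes, in either direction, moved too. With 1 library left out they lay between 199 and 409 in low-fat libraries, against 272 with all libraries. In high-fat libraries they lay between 182 (without KO replicate 2) and 1204 (without KO replicate 1), against 327. The log2 fold change was above 0 for 33 of 41 genes in each fraction, against 50.4% and 50.9% of all genes. It was above 0 in both fractions for 30 of 41, against 33.9%, but both comparisons use the same mice. The median over the 41 was 0.14 in each fraction, against 0.001 and 0.003 over all genes. With 1 library left out, the number of the 41 above 0 lay between 28 (without WT replicate 3) and 35 in low-fat libraries and between 29 (without KO replicate 1) and 39 in high-fat libraries. Without replicate 1 of every group it was 32 and 33. In the deposited values, KO and WT libraries did not overlap, with KO higher, for 2 genes in low-fat libraries (Zbp1, Iigp1). In high-fat libraries 3 genes did so (Irf7, Ifit1, Isg15), and the shares of all genes were 2% and 2.02%. After scaling as in the fits, Iigp1 overlapped in low-fat and Isg15 in high-fat libraries. Gbp3, Igtp, Ifit1, Irf7 and Usp18 then did not overlap in low-fat libraries, so the genes named depend on the scaling. The share of all genes after scaling was not counted.

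Zbp1, a sensor of Z-form nucleic acids that can trigger cell death, had the smallest p in the low-fat libraries. It stood at 44, 64 and 53 in WT and at 73, 90 and 81 in KO low-fat libraries, which did not overlap, and at 76, 59 and 47 in WT and 86, 62 and 76 in KO high-fat libraries, which did. Its log2 fold change was 0.60 ± 0.20 (SE) in low-fat and 0.33 ± 0.20 in high-fat libraries, with unadjusted limma p of 0.0105 and 0.126 and an adjusted p of 1 in both. Without WT high-fat replicate 3 the second value was 0.18.

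Irf7, the factor that amplifies type I interferon production, stood at 705, 831 and 760 in WT and at 959, 827 and 889 in KO low-fat libraries. In high-fat libraries it stood at 804, 733 and 671 in WT and 962, 833 and 817 in KO, where every KO value was above every WT value. For Irf7 the log2 fold change was 0.23 ± 0.10 (SE) and 0.27 ± 0.10, with limma adjusted p of 1 in both. Ifit1, a binder of viral RNA, stood at 133, 219 and 187 in WT and 220, 219 and 241 in KO low-fat libraries. Its high-fat values were 192, 213 and 186 in WT and 274, 236 and 235 in KO, which did not overlap. For Ifit1 it was 0.37 ± 0.15 (SE) and 0.35 ± 0.15, with limma adjusted p of 1 in both. The low-fat value was 0.15 for Irf7 without KO replicate 1 and 0.18 for Ifit1 without WT replicate 1.

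The GTPases had the highest median of the 7 roles, 0.26 in low-fat and 0.29 in high-fat libraries. Iigp1 was the most abundant of the 41 genes before division by length, at 4545, 6014 and 6048 in WT and 7069, 6810 and 6069 in KO low-fat libraries, and at 4024, 4668 and 5861 in WT and 6082, 6975 and 5670 in KO high-fat libraries. In these deposited values its groups overlapped in the high-fat and not in the low-fat libraries, and after scaling they overlapped in both. Its log2 fold changes were 0.29 ± 0.17 (SE) and 0.40 ± 0.17, with limma adjusted p of 1 in both. Without WT replicate 1 they were 0.16 and 0.26, and without replicate 1 of every group the low-fat value was 0.095. Igtp, a relative of Iigp1, was chosen after its values were seen, as a gene with an unadjusted p under 0.05 in both fractions. It stood at 411, 622 and 407 in WT and 605, 695 and 612 in KO low-fat libraries, and at 362, 500 and 460 in WT and 474, 715 and 572 in KO high-fat libraries. In these deposited values the groups overlapped in both fractions, and after scaling in the high-fat fraction only. The log2 fold changes were 0.45 and 0.43, each ± 0.19 (SE), and the second was 0.28 without WT high-fat replicate 1 and 0.27 without KO high-fat replicate 2. The transcription factors had medians of 0.21 and 0.23, the ISG15 system 0.15 and 0.19, the sensors 0.10 and 0.11, the other antiviral effectors 0.08 and 0.14, the PARP group 0.08 and 0.11 and the IFIT and OAS genes 0.03 and 0.07.

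**Figure D4:**
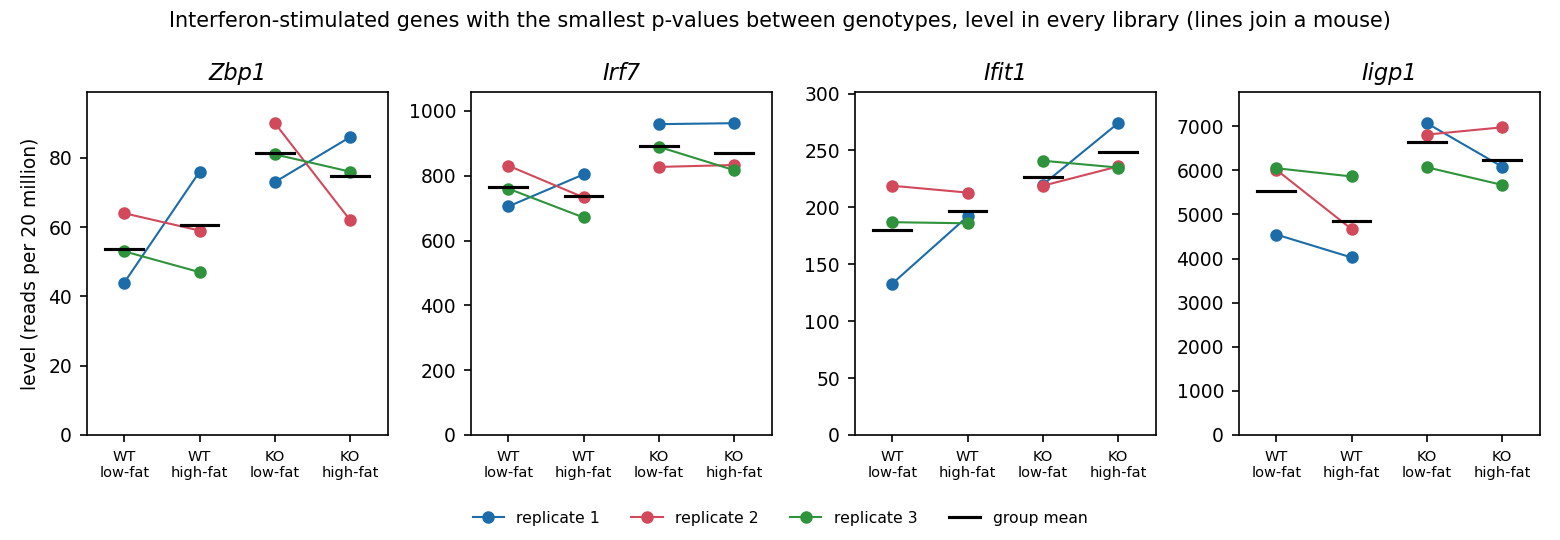
Level in reads per 20 M (vertical axes from 0) of Zbp1, Irf7, Ifit1 and Iigp1 in each of the 12 libraries, by group, with lines joining the 2 libraries of a mouse and black bars at group means. The KO means are above the WT means in both fractions for all 4 genes. In these deposited values the groups overlap in 1 of the fractions for each.

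**Figure D5:**
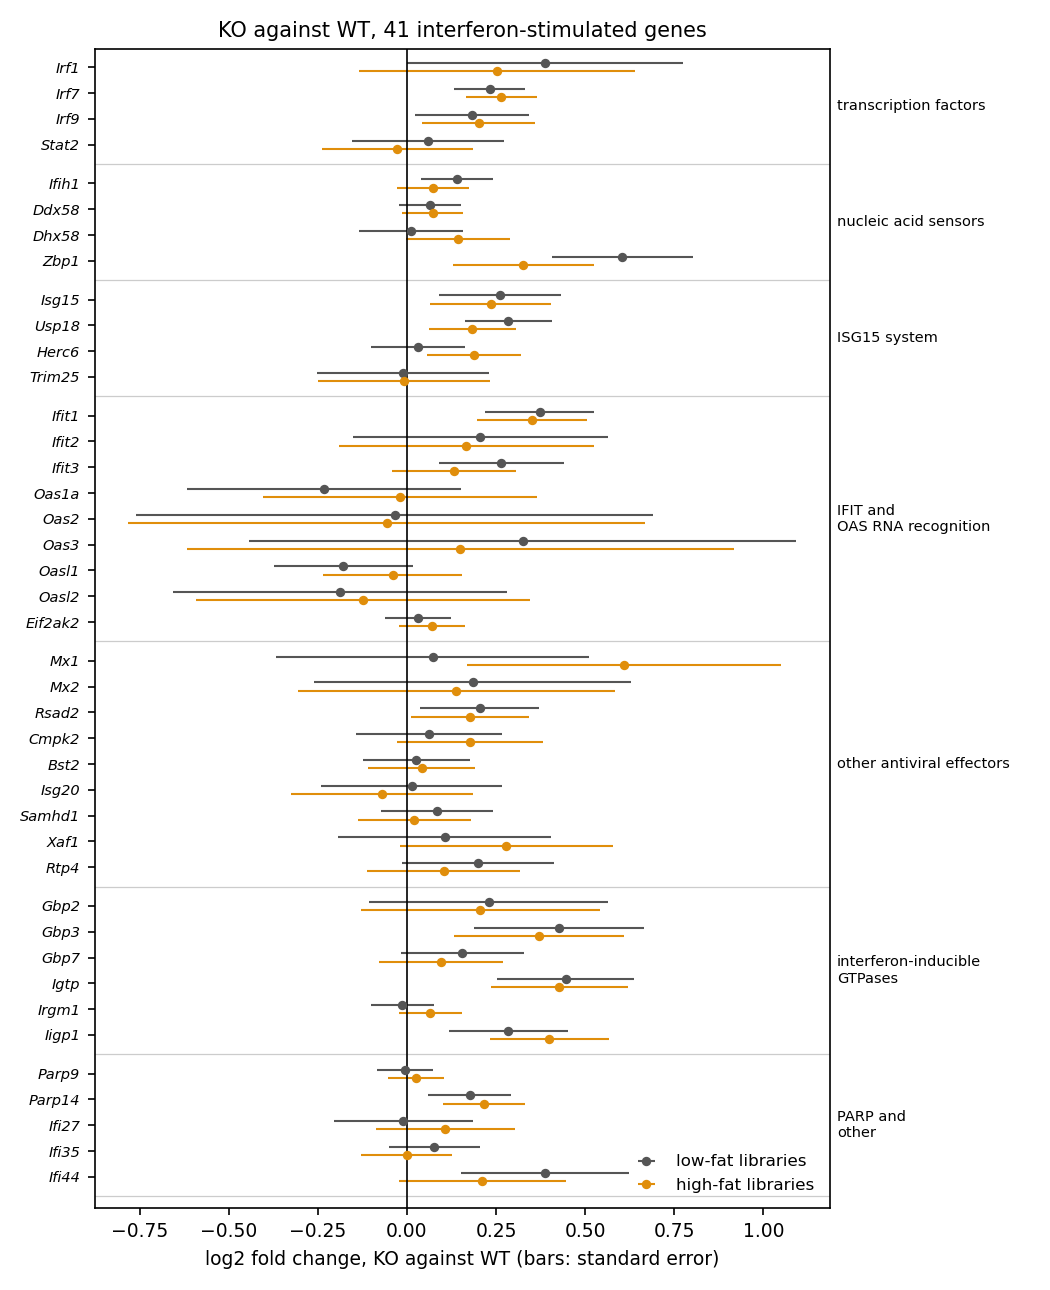
Log2 fold change of KO against WT (horizontal axis) for the 41 genes by role, grey for the low-fat and orange for the high-fat fraction, with bars of 1 standard error. Most points lie right of 0, and the bars of Oas2, Oas3, Oasl2, Mx1 and Mx2 are the widest.

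Individual mice took uneven shares of the highest and lowest values. With the 2 libraries of a mouse averaged, KO replicate 1 had the highest level for 17 of the 41 genes, KO replicate 3 for 9 and KO replicate 2 for 6, against 5, 3 and 1 for WT replicates 1, 2 and 3. WT replicate 3 had the lowest level for 21 of the 41. The mean log2 level of the 41 genes in low-fat libraries was 8 ± 0.175 (SD, n = 3) in WT and 8.145 ± 0.0286 in KO, and in high-fat libraries 8.183 ± 0.18 and 8.333 ± 0.173. In low-fat libraries the 9 macrophage markers had a median log2 fold change of -0.79 in KO against WT and the 7 endothelial markers -0.70. None of these was called, and their part in the result was not tested. In high-fat libraries the medians were -0.08 and -0.47.

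Whether the fractions differed by another amount in KO than in WT was tested as an interaction. No gene was called with or without the block, and 24 genes had an unadjusted p under 0.05, none of them among the 41. The median over the 41 was -0.02.

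Upstream of these genes, most of the interferon genes were at 0. Of 11 interferon genes, 9 were at 0 in all 6 WT libraries and 10 in all 6 KO libraries, among them Ifnb1 and every Ifna gene listed. Ifnk was the 1 interferon gene that passed the filter, and it was called in no comparison. Summed, the 11 genes stood between 14 and 54 reads per 20 M in each library. At these depths a value of 0 allows up to 2.40 to 3.98 reads per 20 M, and the listing covers counting error only. Of the receptors, Il10rb, a chain shared by the interferon lambda and interleukin 10 receptors, was the 1 of 5 tested genes called between fractions over both genotypes. It stood at 41, 53 and 49 in WT and 45, 52 and 76 in KO low-fat libraries and at 162, 84 and 102 in WT and 152, 97 and 79 in KO high-fat libraries, a log2 fold change of 0.97 (limma adjusted p = 0.0139). None of 14 receptor signalling genes was called. With the mouse as a block, Irf2 and Irf5 were called lower at -0.31 each (limma adjusted p = 0.00575 and 0.0119). Of all 16563 genes tested, 630 were called lower with the block.

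Of 13 nucleic acid sensing genes tested, Tmem173, which encodes the DNA-sensing adaptor STING, was called higher in high-fat libraries, at a log2 fold change of 1.49 (limma adjusted p = 0.0364). With the block, Tlr7, a receptor for single-stranded RNA, was called higher at 1.80 (0.0133) and Ticam1, the adaptor of TLR3, lower at -0.37 (0.0119). Over all 16563 genes the block gave 1101 higher and 630 lower calls. Of 45 further interferon-stimulated genes, 6 were called higher between the fractions and none lower, against 4.99% and 0.773% of all genes. They were the GTPases Gbp4 (log2 fold change 1.38), Gbp5 (1.63) and Gbp9 (1.08), and Ifi204 (1.89), Slfn5 (1.603) and Sp100 (1.53). None of the genes in these upstream and further lists was called between genotypes.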

How the data were processed

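RNA sequencing values of 12 libraries were analysed. The deposited values are a score: per the values themselves, the authors brought gene read counts to a total of 20 M (mega) per library and rounded up. The genome build named in the submitters' processing notes is mm9. Aligner, counter, annotation and strandedness are not given in the sources used here. Because the values are not raw counts, a count model was not used. Values were rescaled by the trimmed mean of M values and tested as log2(value + 2) with limma 3.58.1 in R 4.3.3, over genes with at least 10 in at least 3 libraries, in 4 group means with an intensity trend, without a block. Calls used adjusted p under 0.05 (Benjamini-Hochberg, two-sided). The fit was tested on simulated data. Low-fat and high-fat libraries of a mouse share its name in the labels; deviations of the 2 libraries correlated at 0.516 on average in WT and 0.162 in KO. Replicates differed by more than read sampling (chi-square per gene 22.2 to 53.6). The 41 genes and the lists were chosen with earlier results of these data known. Genes given in full are those called, the 3 with the smallest p in each comparison of genotypes and the highest of each role; Oas3 and Igtp were added after their values were seen. Lengths came from GENCODE M21, which held 99.56% of the identifiers. Alternatives are given in the closing section. Whether replicates of a group come from separate animals is read from the mouse names alone. The values of 1 gene of the pathway lists are not reported here, while its list's counts include it.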

Additional observations from a re-analysis of the deposited data

How the results depend on the processing

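No interferon-stimulated gene was called between genotypes, within a single genotype or in the interaction under any alternative run. With the replicate block, the number of genes called between fractions was 169 in WT (0 without), 353 in KO (148 without) and 1731 over both genotypes (954 without). It changed no other call of the 41 genes than that of Oasl2. A shared replicate number in WT and KO marks different mice, whose deviations correlated at 0.315 on average in low-fat and 0.233 in high-fat libraries. With only the compared libraries, 0 genes were called in KO against WT high-fat and 0 between fractions in KO, the former losing Ptprk (adjusted p = 0.906). A pseudocount of 10 gave 1 gene in WT. Leaving out libraries gave 0 to 1 genes in each comparison of genotypes, 0 to 1 between fractions in WT, 0 to 75 in KO (any 1 of its 6 libraries left out) and 375 to 1125 over both genotypes (606 without KO low-fat replicate 1, 608 without KO high-fat replicate 1), with 0 to 4 of the 41 genes. The call of Ptprk in high-fat libraries was also lost without KO high-fat replicate 1 (limma adjusted p = 0.0776). The 375 and the 0 come from leaving out replicate 1 of every group, an alternative chosen after seeing the data, as was scaling over the tested genes only. Without replicate 1 of every group, 22 genes were called between fractions in KO, Ptprk was not called (limma adjusted p = 0.0623 in low-fat, 0.103 in high-fat libraries), and, among the genes whose fold between fractions is printed above or checked beside them (20 of the 41), Mx1 (-0.065), Ifit1 (-0.004) and Ifi27 (0) changed sign or reached 0. Among the same 20, leave-out ranges over both genotypes that reached or crossed 0 were -0.027 to 0.114 for Ifit1, -0.065 to 0.673 for Mx1, -0.209 to 0.001 for Trim25, -0.032 to 0.202 for Bst2 and -0.238 to 0 for Ifi27. Over all 41 genes, 6 comparisons and their alternatives, 345 of 4099 fold changes changed sign, none of them called in either fit. In the comparison of fractions over both genotypes 15 of the 41 genes changed sign at least once, in WT alone 17 and in KO alone 15. Between genotypes 23 did so in low-fat and 17 in high-fat libraries, and in the interaction 35. Each of the 41 changed sign in at least 1 comparison. These 20 genes were picked after sign changes had been seen. The cause of these changes was not tested. Depth limits Oas2 and Oas3 most, whose low-fat values reach down to 2 and 3 reads per 20 M.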
